A study of Mus musculus with 18 samples.

Results

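Broad regions of open chromatin were examined in mouse embryonic fibroblasts, connective tissue cells grown from embryos, by ATAC-seq. In this assay a transposase cuts accessible DNA, and stretches with more cuts than their surroundings are called as peaks. The peaks of 6 libraries were merged wherever they overlapped by 1 bp or more, which gave 321676 regions. The broad regions were chosen by measured values of these lists, a peak in all 6 of them and a merged width of 2000 bp or more. They numbered 11279, or 14.7% of the 76980 regions present in all 6 lists and 3.51% of all merged regions. A further 2016 regions reached this width but missed at least 1 list and were not included.

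All cells were C57BL/6 fibroblasts of the R26-M2rtTA line, which carries the doxycycline-responsive activator. They were infected with doxycycline-inducible lentiviral vectors and collected 48 h after doxycycline was added, with 50000 nuclei per library. The first group (BM, 3 libraries) received Brn2 and Myt1l. The second group (BM/Ikzf1/4, 3 libraries) received Ikzf1 and Ikzf4 in addition to Brn2 and Myt1l, so both groups shared the first pair of factors and the comparison asks what Ikzf1 and Ikzf4 add to them. The labels do not say whether the libraries of a group came from separate cultures, so p-values measure the spread between these libraries, which may be technical.

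Brn2 is a neuronal POU-homeodomain factor and Myt1l is a zinc-finger factor known for silencing non-neuronal genes. Ikzf1 (Ikaros) and Ikzf4 (Eos) are zinc-finger factors of the Ikaros family, which bind DNA and can recruit chromatin remodelling complexes. Long stretches of accessible chromatin are known from the promoters of highly transcribed genes and from clusters of enhancers. They are also known where repeated or mitochondrial sequence collects many reads. The coordinates of the lists fit the mouse build mm9. Gene annotation and genome sequence of that build were not used here, so regions are given by position and are not assigned to genes.

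The 6 lists held 131297 to 207243 peaks, which covered 73.4 to 124.5 Mb. BM replicate 3 stood apart with the fewest peaks and the least covered sequence.

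Few of the broad regions were broad in every library. The merged width had a median of 2390 bp, a 90th percentile of 3192 bp and a maximum of 16299 bp. In contrast, the stretch covered by peaks in all 6 lists had a median of 666 bp, or 26.8% of the merged width. A single peak of 2000 bp or more was present in all 6 lists for 355 regions (3.15%, against 0.461% of all shared regions), in 5 lists for 375, in 4 for 545, in 3 for 1080, in 2 for 1841 and in 1 list for 3888. In 3195 regions (28.3%) no list held such a peak, and the width arose from peaks of different libraries that overlapped in a chain. For 862 regions (7.64%) no base was covered in all 6 lists. The name broad therefore describes the union of the libraries for most of these regions.

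**Figure D1:**
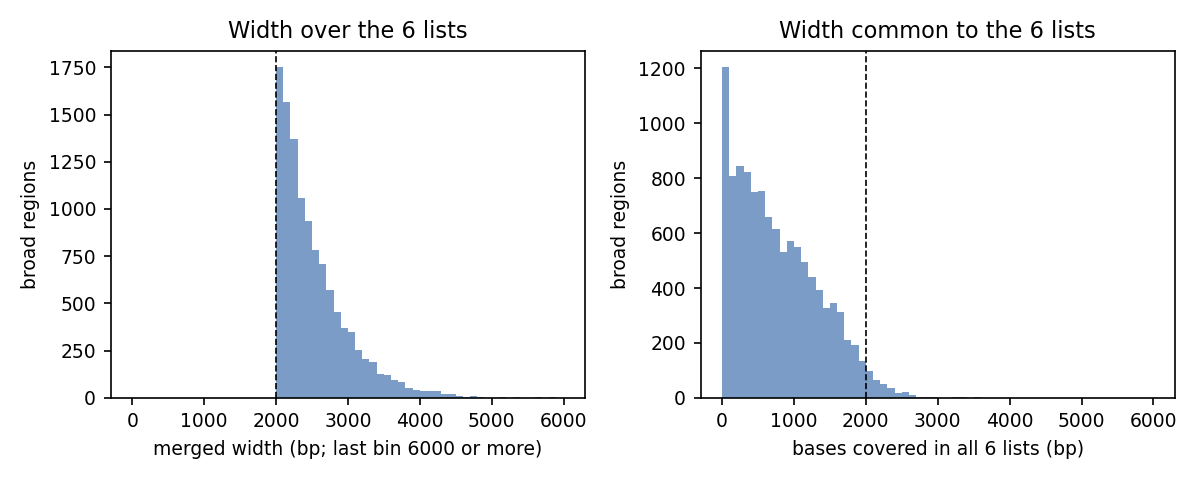
Numbers of broad regions (vertical axes) by merged width over the 6 lists (left, bp) and by the number of bases covered in all 6 lists (right, bp). The dashed line marks the 2000 bp minimum: every region lies at or above it on the left by the way regions were chosen, while 327 of 11279 do so on the right.

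The minimum cut through a continuous distribution. There were 16 regions of exactly 2000 bp and 18 shared regions of 1999 bp. Just inside, chr1:127456127-127458126 had highest folds of 4.11, 4.66 and 4.23 in the BM lists and 4.10, 4.22 and 4.31 in the BM/Ikzf1/4 lists. Just outside, chr1:74349547-74351545 had 4.62, 4.18 and 4.52 against 3.94, 3.82 and 4.42. The other region just inside, chr1:15323551-15325550, ranged from 2.95 to 4.46, and the other just outside, chr10:54832009-54834007, from 2.56 to 3.00. These values lie within the range of the broad regions on both sides of the minimum.

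The narrower a broad region was, the more common it was. Widths of 2000 to 2499 bp were found for 6683 regions (59.3%), 2500 to 2999 bp for 2884 (25.6%), 3000 to 3999 bp for 1518 (13.5%) and 4000 bp or more for 194 (1.72%). The fold used throughout is the authors' own value, the enrichment of a peak over the local background of its library as the peak caller gave it. For each region and list the highest fold among its peaks was taken. Its median fell from class to class with width, from 3.17 to 3.03, 2.89 and 2.69 in the BM lists and from 3.31 to 3.17, 3.04 and 2.85 in the BM/Ikzf1/4 lists. Across the 11279 regions, log2 width and mean log2 fold had a Pearson correlation of -0.23, a description over regions that share the same libraries. Whether the caller's fold is a mean over the peak is not given, and the part of peak length in this fall was not tested. The widest regions were also the most divided, with 1.89 peaks per region in BM lists and 2.02 in BM/Ikzf1/4 lists at 4000 bp or more, against 1.18 and 1.21 at 2000 to 2499 bp.

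The sequence covered within broad regions overlapped between the groups. Peaks inside them covered 20.2, 19.7 and 14.4 Mb in the 3 BM lists and 17.8, 18.6 and 18.9 Mb in the 3 BM/Ikzf1/4 lists. The low value is that of BM replicate 3. The means were 18.1 ± 3.19 and 18.4 ± 0.552 Mb (SD, n = 3 per group), and an exact permutation test gave a two-sided p of 1.0 (adjusted 1.0). Here and below, exact p-values were adjusted with Benjamini-Hochberg over 9 values per list, and 3 against 3 lists cannot give a p below 0.1. Without BM replicate 3 the difference was -1.51 Mb, with the BM lists higher and no overlap between the groups (exact permutation p 0.1). It was 1.37 Mb without BM replicate 1 and 1.13 Mb without BM replicate 2 (exact permutation p 0.8 for each). Covered sequence comes from the same peak extents that set the merged width. These values are therefore a description, and nothing is read from their p-values.

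As a share of each list, broad regions held 16.2%, 18.1% and 19.7% of the covered bases of the BM lists and 15.7%, 15.4% and 15.6% of those of the BM/Ikzf1/4 lists. The groups did not overlap, with BM replicate 1 closest to the other group and BM replicate 3 farthest from it. The difference of -2.39 percentage points had an exact permutation p of 0.1 (adjusted 0.45), the smallest this design allows. It was -3.28 points without BM replicate 1 (exact permutation p 0.1) and -3.4 with peaks of -log10 q of at least 5, where the groups overlapped (exact permutation p 0.3). Without BM replicate 3 it was -1.54 points, and with the same number of highest-q peaks from each list -0.455 points (exact permutation p 0.2). At a width minimum of 3000 bp, which takes in fewer regions, it was -0.367 points. By number of peaks the shares were 7.24%, 8.25% and 11.1% against 7.71%, 7.24% and 7.32%, which overlapped (exact permutation p 0.3, adjusted 0.54). The difference in these means was -1.45 points, and -0.324 without BM replicate 3 and -0.198 with the same number of highest-q peaks from each list. It was -2.27 points without BM replicate 1 and -2.13 with peaks of -log10 q of at least 5 (exact permutation p 0.1 for each). The size of this difference thus depends on the library left out and on the peaks taken. Broad regions were chosen by peak extents and by a peak in every list, and both shares come from the same peaks. BM replicate 3, the list with the fewest peaks, had the highest share of bases (19.7%) and of peaks (11.1%). Both shares are therefore a description, and nothing is read from their p-values.

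The number of peaks inside a broad region overlapped between the groups. The mean was 1.284, 1.241 and 1.296 peaks per region in BM lists and 1.352, 1.285 and 1.346 in BM/Ikzf1/4 lists (exact permutation p 0.2, adjusted 0.45). A single peak spanned the covered part in 73.2%, 76.9% and 72.3% of regions in BM lists and in 66.9%, 72.8% and 67.6% in BM/Ikzf1/4 lists (exact permutation p 0.2, adjusted 0.45). In 3856 regions (34.2%, against 83.8% of all shared regions) every list held 1 peak. BM/Ikzf1/4 replicate 2 lay inside the BM range on both of the means per list. With the same number of highest-q peaks from each list both differences turned, to -0.0289 peaks per region and 2.38 percentage points (exact permutation p 0.9 for each). At a width minimum of 3000 bp they were 0.118 peaks and -9.7 points (exact permutation p 0.1 for each). Without BM/Ikzf1/4 replicate 2 they were 0.0753 and -6.88 (exact permutation p 0.1 for each, the smallest possible). A peak of at least 2000 bp was present in 31.8%, 31.9% and 14.1% of regions in BM lists and 21.2%, 25.9% and 25.8% in BM/Ikzf1/4 lists (exact permutation p 1.0, adjusted 1.0). BM replicate 3 was the lowest and the other BM lists the highest of all 6. In a region shared by all 6 lists, such a peak meets the width rule by itself. These shares are therefore a description, and nothing is read from their p.

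Region by region, in 380 broad regions all 3 BM lists had 1 peak and all 3 BM/Ikzf1/4 lists had 2 or more, which was 3.37% against 0.661% of all shared regions. The reverse was seen in 169 regions, 1.5% against 0.278% of all shared regions. In narrow regions the shares were 0.196% and 0.0685%, and the part of width in this was not tested. A peak of 2000 bp or more was present in all 3 BM/Ikzf1/4 lists and no BM list in 300 regions and in all 3 BM lists and no BM/Ikzf1/4 list in 222. These counts were 0.39% and 0.288% of all shared regions and, by the width rule, fell in broad regions only. The count for BM is limited by BM replicate 3, where 14.1% of broad regions held such a peak. In the other BM lists 31.8% and 31.9% did, so no direction is read from these counts.

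**Figure D2:**
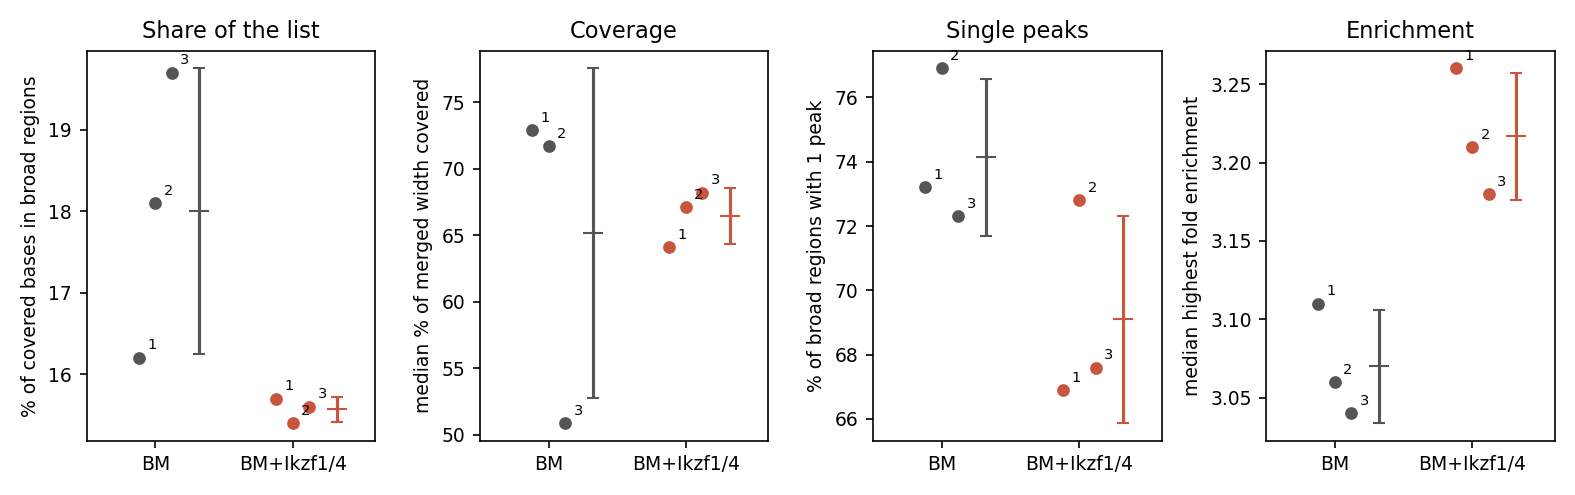
Values per list (points, numbered by replicate) with mean and SD of 3 lists beside them, for the share of a list's covered bases in broad regions (%), the median share of merged width covered (%), the share of broad regions with 1 peak (%) and the median highest fold. The axes do not start at 0. The groups are apart in the first and last panels, and BM replicate 3 lies at 50.9% in the second while the other 5 lists lie at 64.1% to 72.9%.

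Coverage within the regions was highest in the middle and fell towards both ends in both groups. At the centre, 72.73% of region and list pairs had a peak in the BM lists and 71.60% in the BM/Ikzf1/4 lists. At 10.2% of the width these values were 59.00% and 61.34%, and at the first base 17.39% and 17.53%. The curves of the groups differed by less than 3 percentage points at every position, with the BM/Ikzf1/4 lists higher near the ends and the BM lists higher around the centre. This difference was not tested. The BM curve takes in BM replicate 3, whose median share of merged width covered was 50.9%, against 72.9% and 71.7% in the other BM lists. In the BM/Ikzf1/4 lists it was 64.1%, 67.1% and 68.2%. Curves without BM replicate 3 were not made, so the closeness of the groups and their order near the ends may rest on that library. Of the 28.6 Mb in broad regions, 8.76 Mb (30.7%) were covered in all 6 lists, 1.28 Mb (4.49%) in all 3 BM lists only and 1.42 Mb (4.98%) in all 3 BM/Ikzf1/4 lists only. In narrow shared regions, those under 2000 bp, the same shares were 37.7%, 3.27% and 3.44%. At least 300 bp covered in all lists of one group and none of the other were found in 1581 broad regions for BM (14.0%, against 4.75% of all shared regions) and in 1728 for BM/Ikzf1/4 (15.3%, against 5.05%). Both kinds were found in 172 regions (1.52%, against 0.281%). A wider region has more bases that can differ, and the width rule uses the same extents, so nothing is read from these contrasts with other regions.

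**Figure D3:**
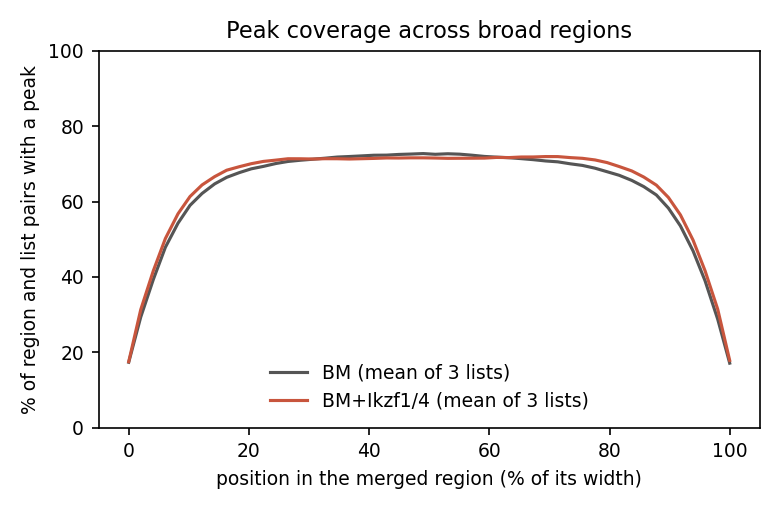
Share of region and list pairs with a peak (%, vertical axis) by position within the merged region (% of its width), averaged over 11279 broad regions and the 3 lists of each group. Both curves rise from about 17% at the ends to over 70% in the middle.

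The median of the highest fold over broad regions was 3.11, 3.06 and 3.04 in the BM lists and 3.26, 3.21 and 3.18 in the BM/Ikzf1/4 lists. The groups did not overlap, and the difference of 0.144 had an exact permutation p of 0.1 (adjusted 0.45). With only peaks of -log10 q of at least 5 the direction turned, to -0.0128 (exact permutation p 0.7). Narrow shared regions had medians of 3.32, 3.22 and 3.11 against 3.38, 3.31 and 3.39, above the broad regions in every list. On the log2 scale the broad regions lay below the narrow ones by 0.065 ± 0.033 in the BM lists and 0.064 ± 0.022 in the BM/Ikzf1/4 lists (SD, n = 3 per group). The gap overlapped between the groups (exact permutation p 0.9, adjusted 1.0).

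Since a fold moves with the depth and background of its library, the test per region was run relative to the median of each list over all shared regions. That median was higher in the BM/Ikzf1/4 lists by 0.064 on the log2 scale for fold and by 0.049 for covered bases. Without BM replicate 3 these shifts were 0.043 and -0.102, so the direction for covered bases rests on that library. Relative to it, limma with Benjamini-Hochberg adjustment over 76980 regions called 1540 of 11279 broad regions (13.7%) for highest fold, against 21.5% of all shared regions and 22.9% of the narrow ones. Of these, 706 had a higher fold in the BM/Ikzf1/4 lists and 834 a lower one (6.26% and 7.39%, against 9.79% and 11.8% of all shared regions). Without centring the list medians the split was 1099 higher and 446 lower, so the balance of directions depends on the scaling. Without BM/Ikzf1/4 replicate 1 or 2 the calls dropped to 920 and 889 in all. Without BM/Ikzf1/4 replicate 3 there were 553 lower calls, and without BM replicate 1 there were 425 higher calls. The share of broad regions called was below that of narrow ones in 16 of 16 settings tried. These settings reuse the same 6 lists, and fold itself fell with width, so nothing is read from this contrast.

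Changes in fold among broad regions were small. The median change was -0.018 on the log2 scale, and 90% of regions lay between -0.38 and 0.37. For narrow regions 90% lay between -0.49 and 0.48. The median spread between libraries of a group was 0.121 in broad and 0.139 in narrow regions. Among called broad regions the median absolute change was 0.42, and no called change exceeded 1. The rule requires a peak in every list, so regions that lost their peak in any library are not included. This limits the size of change that can be seen, and nothing is read from the changes being small. Groups did not overlap in 1673 broad regions with higher fold (14.8%, against 16.4% of all shared regions) and in 2154 with lower fold (19.1%, against 21.0%). Without BM replicate 3 there were 642 higher and 555 lower calls, and the median change was 0.006.

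Covered bases come from the same peak extents that set the merged width, so a region wide in 1 group only enters the broad set through that group. The share of calls is therefore given as a description, and nothing is read from its difference from narrow regions. The same limit holds for each change in covered bases given below for a single region, with or without its p. With the same limma test, 1152 broad regions (10.2%) were called, against 5.9% of all shared regions. They divided into 546 with more and 606 with fewer covered bases in the BM/Ikzf1/4 lists (4.84% and 5.37%, against 2.79% and 3.11% of all shared regions). Without centring the list medians 748 regions were called. The number of calls depended on single libraries, and without BM/Ikzf1/4 replicate 1, 2 or 3 it was 333, 370 and 543, and without BM replicate 1 or 2 it was 684 and 575. Without BM replicate 3 it was 1293. Over all broad regions the median absolute change was 0.382 on the log2 scale. Among called ones it was 1.43, with 967 of 1152 above 1, a size that the test threshold itself selects. Groups did not overlap in 1754 regions with more covered bases (15.6%, against 14.2% of all shared regions) and 1774 with fewer (15.7%, against 14.8%).

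The largest rise in fold was at chr2:135020228-135022256, where the highest fold was 2.54, 2.61 and 2.26 in the BM lists and 5.24, 4.43 and 5.91 in the BM/Ikzf1/4 lists. The groups were far apart, and the change was 1.0 on the log2 scale (SE 0.12, limma adjusted p 4.32e-05). Each BM list had 1 peak there and each BM/Ikzf1/4 list 2. At chr1:121701743-121703955 the folds were 2.30, 2.14 and 2.40 against 5.80, 4.42 and 4.16, a change of 0.99 (SE 0.13, limma adjusted p 7.41e-05), with 1 peak in every list. At chr13:7816773-7819506 they were 2.70, 2.64 and 2.52 against 5.04, 5.37 and 4.89 (0.90, SE 0.11, limma adjusted p 4.44e-05). All 3 regions stood at BM folds below the BM medians and at BM/Ikzf1/4 folds well above the medians of those lists. Their peaks in the BM lists were of low significance. The highest -log10 q there was 2.31, 2.06 and 1.3 at the first, 2.36, 1.58 and 1.84 at the second and 2.79, 2.2 and 1.99 at the third. The medians of the BM lists over broad regions were 5.64, 4.25 and 4.29.

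Next, chr11:24793711-24795737 had folds of 2.63, 2.44 and 2.26 against 5.24, 4.17 and 4.74 (0.88 on the log2 scale, SE 0.12, limma adjusted p 8.55e-05). It was the one of these 6 regions in which a rise in covered bases was called as well, from 558, 486 and 150 bp to 1170, 1841 and 1376 bp (2.01, SE 0.39, limma adjusted p 0.0272). At chr11:28453706-28455745 fold rose from 2.50, 2.29 and 2.48 to 5.10, 4.63 and 4.09 (0.86, SE 0.12, limma adjusted p 0.000117). There the covered bases were 1464, 1531 and 461 bp in the BM lists and 476, 479 and 432 bp in the BM/Ikzf1/4 lists, a change of -1.18 that did not pass (limma adjusted p 0.0964). At chr2:95218643-95221348 fold rose from 2.67, 2.57 and 2.47 to 4.62, 4.65 and 5.02 (0.83, SE 0.11, limma adjusted p 8.43e-05). In this region no base was covered in all 6 lists, so the peaks that gave these folds did not all share 1 position. The BM lists again had low significance at these 3 regions. In the order given, their highest -log10 q was 2.51, 1.61 and 1.31, then 3.41, 2.09 and 1.88, then 3.21, 2.52 and 1.85.

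The largest fall in fold was at chr16:88510350-88512480, from 5.30, 4.47 and 6.05 in the BM lists to 2.86, 2.69 and 2.89 in the BM/Ikzf1/4 lists (-0.96 on the log2 scale, SE 0.12, limma adjusted p 6.08e-05). At chr14:61779758-61782138 it fell from 5.17, 4.71 and 4.19 to 2.66, 2.32 and 2.89 (-0.90, SE 0.12, limma adjusted p 7.42e-05). Covered bases there were 1330, 1551 and 1616 bp against 1423, 1344 and 2301 bp, with no call (limma adjusted p 0.901). Fold was lower in all 3 BM/Ikzf1/4 lists, while the ranges of covered bases overlapped, with BM/Ikzf1/4 replicate 3 the highest. Of its 2381 bp, 925 were covered in all 6 lists. In the BM/Ikzf1/4 lists the highest -log10 q was 3.18, 2.77 and 3.53 at the region on chromosome 16. It was 2.48, 1.59 and 3.6 at the region on chromosome 14. The medians of these lists over broad regions were 5.55, 5.54 and 5.74.

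At chr15:50247469-50249521 fold fell from 4.76, 3.86 and 3.71 to 2.25, 2.30 and 2.44 (-0.87, SE 0.12, limma adjusted p 9.63e-05). Covered bases fell with it, from 2041, 1480 and 682 bp to 526, 534 and 535 bp (-1.31, SE 0.30, limma adjusted p 0.0413). At chr17:88957531-88959891 fold fell from 4.59, 5.45 and 5.91 to 3.2, 2.76 and 3.19 (-0.86, SE 0.12, limma adjusted p 0.000139). Covered bases rose at the same place, from 818, 681 and 587 bp to 2307, 1339 and 1571 bp (1.25, SE 0.25, limma adjusted p 0.0301). The measures moved together at the first of these regions and apart at the second. The part of peak length in these falls of fold was not tested. In the BM/Ikzf1/4 lists the highest -log10 q was 1.35, 1.54 and 2.02 at the first and 4.27, 2.86 and 4.45 at the second.

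The remaining falls were also on chromosome 17. At chr17:79831271-79833433 fold went from 3.80, 5.23 and 4.24 to 2.60, 2.48 and 2.50 (-0.86, SE 0.13, limma adjusted p 0.000195). At chr17:13806283-13808896 it went from 7.64, 5.59 and 6.21 to 3.76, 3.62 and 3.74 (-0.86, SE 0.11, limma adjusted p 5.87e-05). The second kept folds above the medians of the BM/Ikzf1/4 lists. Its highest -log10 q in those lists was 7.04, 6.51 and 7.47, against 2.26, 2.03 and 2.22 at the first.

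**Figure D4:**
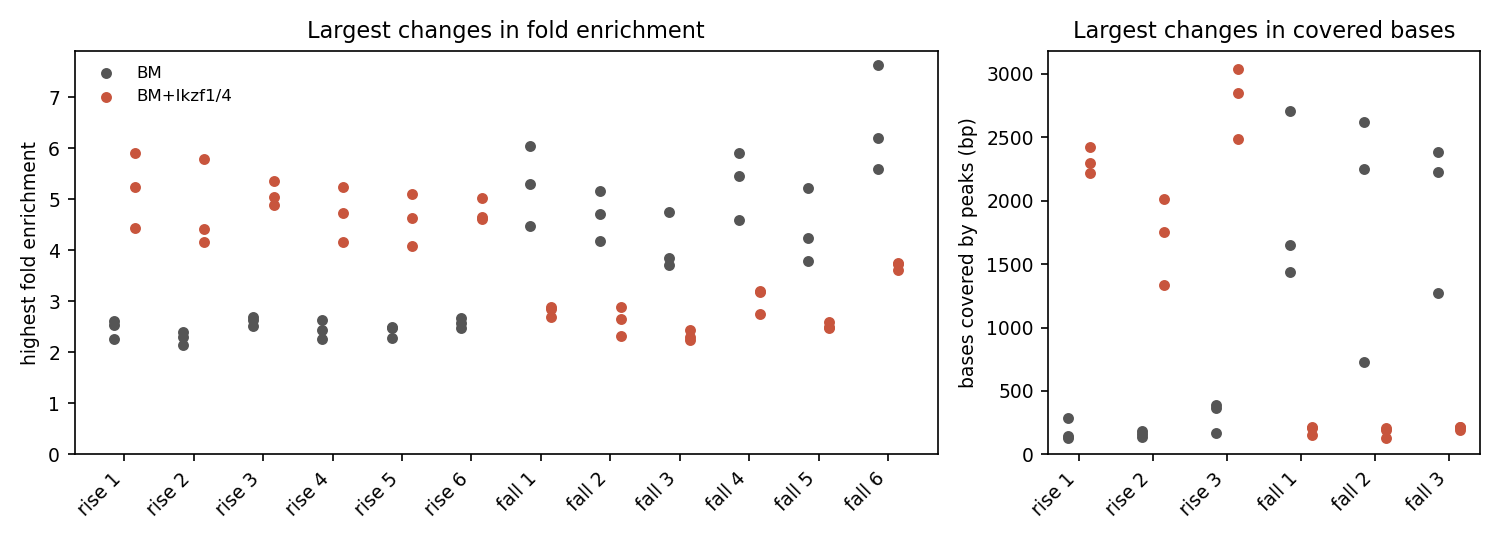
Values in each of the 3 BM and 3 BM/Ikzf1/4 lists (points) for the 6 largest rises and 6 largest falls in highest fold (left) and the 3 largest rises and falls in covered bases (right, bp), ranked by the size of the change. The groups do not overlap in any of these regions, a condition of their choice.

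The regions of largest change in covered bases reached the width minimum through the group in which they were wide, so their values are a description. The largest rise was at chr4:98135593-98138012, with 130, 146 and 283 bp in the BM lists and 2220, 2298 and 2420 bp in the BM/Ikzf1/4 lists (3.67 on the log2 scale). Every list had 1 peak, a short one in each BM library and one over most of the region in the others, and 2045 bp were covered in all 3 BM/Ikzf1/4 lists and no BM list. Its fold rose too, from 2.20, 2.38 and 2.26 to 3.28, 3.23 and 3.17 (0.44, SE 0.11, limma adjusted p 0.00739). At chr1:101611162-101613182 covered bases rose from 184, 157 and 134 bp to 1339, 2016 and 1754 bp (3.37). Fold there was 2.55, 2.80 and 3.01 against 2.85, 2.58 and 2.51, with overlapping groups. At chr3:114177514-114180615 covered bases rose from 369, 389 and 166 bp to 2852, 2483 and 3037 bp (3.22), again with overlapping folds.

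The 3 largest falls in covered bases, likewise regions that were wide in the BM lists, had called falls in fold. At chr9:32862480-32865189 they went from 1654, 2710 and 1440 bp to 205, 218 and 152 bp (-3.35), and fold from 4.04, 3.18 and 3.81 to 2.88, 3.02 and 2.36 (limma adjusted p 0.0132). At chr4:52883218-52885840 they went from 2249, 2623 and 725 bp to 196, 210 and 132 bp (-3.26), with fold falling by 0.41 on the log2 scale. At chr3:147400053-147402529 they went from 2381, 2227 and 1273 bp to 219, 193 and 219 bp (-3.22), with fold falling by 0.37 although its groups overlapped. In the first pair of these no base was covered in all 6 lists.

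Across all broad regions, changes in fold and in covered bases had a Pearson correlation of 0.01 over 11279 regions, which share the same 6 libraries. Both measures were called in 268 regions (2.38%, against 1.77% of all shared regions), which is 17.4% of the regions called for fold and 23.3% of those called for covered bases. Of these, 45 were higher and 79 lower on both measures. The other two combinations were as common, with 86 regions of higher fold and fewer covered bases and 58 of lower fold and more covered bases.

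**Figure D5:**
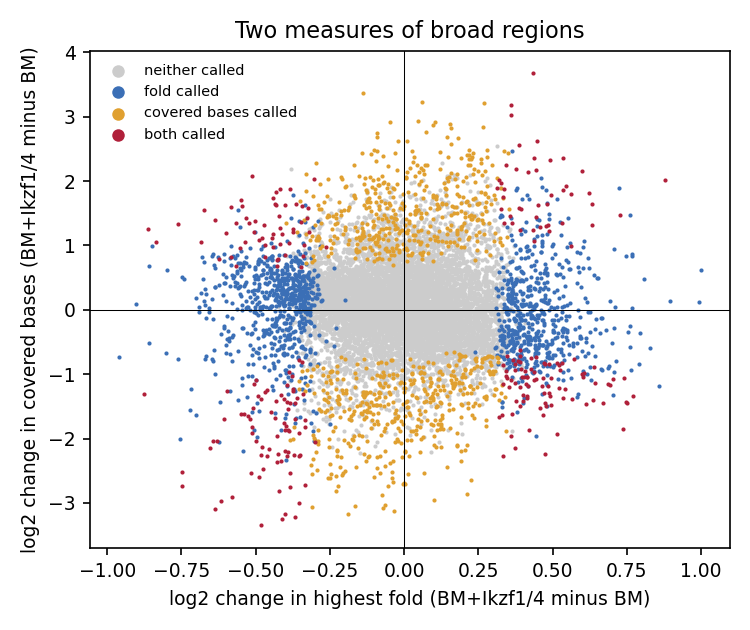
Change in covered bases (vertical, log2) against change in highest fold (horizontal, log2) for each of 11279 broad regions, BM/Ikzf1/4 minus BM, relative to the list medians, with colours for the limma calls. Called regions lie in all 4 quadrants, and the cloud shows no slope (r = 0.01).

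A small set of regions was broad in every library. Of the 355 with a single peak of 2000 bp or more in all 6 lists, 3 (0.845%, against 21.5% of all shared regions) were called for fold, 1 higher and 2 lower. An unadjusted limma p under 0.05 was found for 19 of the 355, against 25.8% of broad and 35.0% of all shared regions. These regions were picked because all lists hold a wide peak there, that is, for likeness between the lists, so nothing is read from their low counts of calls on fold or on covered bases. Their median fold was 3.14, 3.15 and 3.2 in BM lists and 3.19, 3.18 and 3.12 in BM/Ikzf1/4 lists, with overlapping groups. Of the 862 regions with no base covered in all 6 lists, 145 (16.8%) were called for fold, against 21.5% of all shared regions. For covered bases 125 (14.5%) were called, against 5.9%, but these regions were picked because their lists differ in the bases covered, so nothing is read from that count. Their median fold over the 6 lists was 2.71.

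The 3 called regions are named because they are few. At chr13:31649701-31651985 the fold rose from 2.83, 2.90 and 2.93 to 3.95, 3.90 and 3.64 (0.34, SE 0.11, limma adjusted p 0.0374). At chr11:117126609-117129232 it fell from 3.27, 3.77 and 3.04 to 2.60, 2.62 and 2.87 (-0.38, SE 0.12, limma adjusted p 0.0296). At chr17:3081540-3084792 it fell from 3.41, 3.37 and 3.31 to 2.78, 2.84 and 2.79 (-0.33, SE 0.11, limma adjusted p 0.0438), while 2903 of its 3253 bp were covered in all 6 lists. At all 3 the groups did not overlap.

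The widest region was the whole mitochondrial genome, chrM:1-16299, covered by 1 peak of 16274 to 16299 bp in every list. Its fold was 1.08, 1.02 and 1.05 in BM lists and 1.07, 1.10 and 1.02 in BM/Ikzf1/4 lists, the lowest of the widest regions. The next, chr1:24615966-24625550 (9585 bp), was also 1 peak in each list, of 4482, 6141 and 9585 bp in BM and 7579, 7419 and 7832 bp in BM/Ikzf1/4 lists. Its fold was 1.71, 1.6 and 1.33 against 1.66, 1.68 and 1.59. Neither was called on fold or on covered bases, although the mitochondrial fold passed without BM/Ikzf1/4 replicate 2 (-0.07, limma adjusted p 0.0173).

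The other 3 of the 5 widest were chains of several peaks. At chr3:6381759-6388141 (6383 bp) the lists held 2 or 3 peaks, only 22 bp were covered in all 6, and fold was 2.29, 2.38 and 2.74 against 2.77, 3.2 and 3.2 (0.24, SE 0.12, limma adjusted p 0.155). At chr9:39195296-39201186 (5891 bp) the folds were 2.22, 2.55 and 2.48 in BM lists and 2.03, 1.89 and 1.91 in BM/Ikzf1/4 lists, a fall (-0.38, SE 0.09, limma adjusted p 0.00441). With the length-weighted mean fold of its peaks in place of the highest, the change was -0.20 and did not pass (limma adjusted p 0.0709). Its covered bases rose from 2526, 1582 and 1050 bp to 4873, 3732 and 3462 bp (1.25, SE 0.24, limma adjusted p 0.0248). Each BM list divided this region into 3 peaks, as did BM/Ikzf1/4 replicate 3, while BM/Ikzf1/4 replicates 1 and 2 held it as 1 peak. No base of this region was covered in all 6 lists, so the peaks that gave its folds did not all share 1 position. At chr2:7888567-7894436 (5870 bp) there were 4, 3 and 4 peaks in BM lists and 2 in each BM/Ikzf1/4 list, with no call on either measure (limma adjusted p 0.219 for fold and 0.566 for covered bases).

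The 5 regions of highest mean fold were 2069 to 2678 bp wide. At chr13:8883482-8885550 the folds were 7.69, 7.66 and 7.84 in the BM lists and 6.37, 5.09 and 6.32 in the BM/Ikzf1/4 lists, a fall (-0.45, SE 0.09, limma adjusted p 0.00208). At chr16:62844595-62847272 they fell from 6.76, 6.88 and 7.24 to 4.98, 5.63 and 5.44 (-0.45, SE 0.09, limma adjusted p 0.00241). At chr3:94756928-94759274 they were 7.22, 6.56 and 6.84 against 4.10, 6.15 and 6.24 (-0.41, SE 0.13, limma adjusted p 0.0256). That call was lost without BM/Ikzf1/4 replicate 1 (-0.21, limma adjusted p 0.161), in which 1 peak covered all 2347 bp while the other 5 lists covered 823 to 977 bp. The change stayed between -0.40 and -0.33 but missed the threshold without BM replicate 1 (limma adjusted p 0.0755) or BM replicate 3 (0.0842), without centring (0.0703), with quantile normalisation (0.0831) and with peaks of -log10 q of at least 5 (0.134).

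The last pair of these 5 did not pass. At chr1:94830599-94832807 the folds were 6.71, 6.91 and 7.18 against 6.77, 5.31 and 6.07 (-0.27, SE 0.10, limma adjusted p 0.0531). At chr10:93660155-93662294 they were 5.85, 5.77 and 6.43 against 5.14, 6.43 and 7.18 (-0.02, SE 0.11, limma adjusted p 0.913). Both had overlapping groups. The first passed without BM/Ikzf1/4 replicate 1 (-0.35 on the log2 scale, limma adjusted p 0.0313), with the length-weighted mean fold (-0.38, 0.0185) and with the same number of highest-q peaks from each list (-0.29, 0.0434).

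By significance within a list, 11 broad regions reached a -log10 q of 100 in all 6 lists, a limit chosen after the values were seen. They include the mitochondrial genome and chr1:24615966-24625550. Another 5 lay close together on chromosome 9, between 3000062 and 3036292. Of these, chr9:3000062-3002766 had the highest -log10 q of the 11, from 2060.4 to 3040.6, with folds of 5.22, 5.28 and 5.15 in BM lists and 4.60, 4.50 and 4.61 in BM/Ikzf1/4 lists (-0.25, limma adjusted p 0.0666). Folds among the 11 ran from 1.02 to 6.07, so extreme significance went with both low and high fold. None of the 11 was called by limma, with a lowest adjusted p of 0.0666 for fold and 0.705 for covered bases. At the other end, 27.2% of broad regions and 24.3% of narrow ones had a -log10 q of at least 5 in every list.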

How the data were processed

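Open chromatin was measured by ATAC-seq in 6 fibroblast libraries, 3 per group, grouped by their titles. Per the labels, the authors called peaks for each library with MACS2. The deposited lists hold a fold enrichment over background (a ratio), -log10 p and -log10 q for each peak, and a score that is -log10 q multiplied by 10 with decimals dropped. The lists have no header, and columns were read by their place in the 9-column layout of this caller. Whether a peak's fold is a mean or a maximum over its length, and which settings the caller had, are not given in the sources here. The lists hold no column for the position of a peak's highest point. If the fold is a mean, it also depends on how far a peak extends. The part of peak length in the changes of fold was not tested. The submitters' processing notes name Bowtie2, mm9 and mm10 without roles. Peak ends reach 152517317 on chromosome 7, past the last gene of GRCm38 there (145324059), which fits mm9. Read depth per library is not given in the lists, so no counting interval is given.

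Peaks were merged, and per region and list the highest fold and the covered bases were taken as log2, centred on each list's median over 76980 shared regions, and fitted with limma 3.58.1 (R 4.3.3, moderated test with variance trend, Benjamini-Hochberg, threshold 0.05). For values per list, exact permutation tests (two-sided) were used. The members, lists and tests were chosen with earlier results of these data known. Regions named are the 5 widest, the 5 of highest mean fold, the called regions without group overlap that changed most (6 rises and 6 falls in fold, 3 and 3 in covered bases) and those beside the width minimum. Others are said to be chosen after seeing values or because they are few. RNA-seq and multiome files were not used here, as no annotation of mm9 linked them to the regions.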

Additional observations from a re-analysis of the deposited data

How the results depend on the processing

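Alternatives were other scalings, other peak thresholds and merging, a width minimum of 3000 bp and leaving out each library. The percent of broad regions called for fold, 6.26% higher and 7.39% lower, was 9.74% and 3.95% without centring, and 4.77% were called lower with peaks of -log10 q of at least 5. Leaving out 1 library gave 3.73% to 5.69% higher and 4.15% to 5.58% lower. For covered bases, 4.84% higher and 5.37% lower, no centring gave 3.4% lower, and peaks of -log10 q of at least 5 gave 3.19% higher and 3.16% lower. Leaving out 1 library gave 1.07% to 5.36% higher and 1.88% to 6.10% lower, with fewer libraries in each fit.

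Of the values per list, none of which could pass 0.05, several changed sign. With peaks of -log10 q of at least 5 the difference in median fold was -0.0128 (exact p 0.7) and that in the broad-minus-narrow share of width covered 0.842 percentage points. The latter was 1.85 at a width minimum of 3000 bp. With the same number of highest-q peaks from each list, the broad-minus-narrow difference in log2 fold was -0.0132, the difference in peaks per region -0.0289 and that in regions with 1 peak 2.38 percentage points. Leaving out 1 library gave differences of -1.51 to 1.37 Mb in covered sequence, -0.0121 to 0.0198 in the broad-minus-narrow log2 fold and -2.21 to 1.94 percentage points in its share of width covered. The cause was not tested.

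Among named regions, 3 uncalled ones changed sign in fold: chrM:1-16299 (0.02 without centring and 0.03 at -log10 q of at least 5), chr1:24615966-24625550 (-0.05 without BM replicate 3, and 0.09 without BM replicate 1) and chr10:93660155-93662294 (0.04 without centring, 0.06 with quantile normalisation, 0.05 at -log10 q of at least 5, 0.05 without BM replicate 3 and -0.12 to 0.12 when each library was left out in turn). Not every named region had a value in each setting. Of the named largest rises and falls in fold, only chr17:13806283-13808896 had one with peaks of -log10 q of at least 5 (-0.79, limma adjusted p 0.00198). The named changes in covered bases, and chr9:39195296-39201186, had none there or with the same number of highest-q peaks from each list. Several other large changes in fold lacked the latter too. Those settings do not test these changes.

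The labels do not say whether the replicate numbers pair the libraries. Same-numbered lists had correlations of deviations of -0.007, -0.026 and -0.044 for fold, against -0.014 to 0.036 for lists of different number. For covered bases they were 0.005, -0.026 and -0.006, against -0.01 to 0.017. These values cannot show whether libraries shared a culture. With the number as a replicate block, 653 broad regions were called higher and 744 lower for fold, and 614 and 615 for covered bases. The planned results on gene starts and on expression were not run, because no mm9 annotation was at hand. Depth is unknown and limits which peaks were called.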

Other observations

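Broad regions were spread over the genome. The 19 autosomes held 11062 of them, chromosome X 181, chromosome Y 5 and unplaced sequence 30. Among the shared regions of each autosome the broad share ranged from 13.0% on chromosome 7 to 16.9% on chromosome 3, and it was 14.4% on chromosome X and 31.2% of the 16 shared regions on chromosome Y. The median fold change per autosome lay between -0.05 and 0.01 on the log2 scale, and the share of broad regions called for fold between 11.8% and 16.6%.

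The median distance between neighbouring broad regions was 116.8 kb, and 1373 (12.2%) had another within 10 kb. The longest run with gaps of at most 10 kb held 6 regions, on chromosome 10 from 49385781 to 49436071. Its members had fold changes of both signs, and differences between members were not tested. At chr10:49428302-49430410 the fold fell from 2.69, 2.45 and 2.85 to 2.31, 2.14 and 2.29 (-0.31, SE 0.10, limma adjusted p 0.0333). At the next, chr10:49432924-49436071, it was 2.26, 2.85 and 2.55 against 3.18, 3.67 and 3.00, which did not pass (0.30, SE 0.13, limma adjusted p 0.102). The other 4 had changes of -0.16 to 0.20 and were not called. For neighbouring pairs, the Pearson correlation of fold changes was 0.07 for 245 pairs under 5 kb apart and 0.14 for 486 pairs at 5 to 10 kb. It was 0.02 both for 2544 pairs at 10 to 50 kb and for 7976 pairs farther apart, as descriptions over regions of the same libraries. Among the 5 pairs under 5 kb in which both were called, 0 changed in the same direction, and of 12 such pairs at 5 to 10 kb, 9 did. At 10 to 50 kb 20 of 44 did, and farther apart 80 of 159. Pairs among all shared regions were not counted, so nothing is read from these counts by distance.

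Gained regions, present in all 3 BM/Ikzf1/4 lists and no BM list, lay within 10 kb of 24.9% of the broad regions called higher in fold, 25.8% of those called lower and 23.6% of those not called. Lost regions, the reverse, lay within 10 kb of 18.3% of the regions called higher, 8.15% of those called lower and 11.7% of those not called. For narrow shared regions the shares were 21.3% for gained and 11.4% for lost. These shares come from the same lists as the calls and were not tested. A lost region needs a peak in BM replicate 3, the list with the fewest peaks, and a gained one needs none there. Nothing is therefore read from gained against lost shares. Shares by call were not made for narrow regions, so the contrast between calls is not particular to broad regions as far as is known.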
